A study of Mus musculus with 6 samples.

Results

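The genes described here are 10 components of the circadian clock, taken by symbol from the tables of 6 muscle libraries: Arntl, Clock, Npas2, Per1, Per2, Per3, Cry1, Cry2, Nr1d1 and Dbp. They were chosen by name, all 10 were found among 35491 named entries, and all 10 passed the filter on low values that left 23312 genes for testing. The RNA came from whole gastrocnemius (a calf muscle) of 6 untreated male mice, which were 20 weeks old and ate chow. The 3 Control mice are labelled C57BL/6J. The 3 Ogg1Tg mice have the same strain background and carry human OGG1-1a, a DNA repair enzyme that removes oxidised guanine, joined to a mitochondrial targeting signal and driven by the CMV/AG promoter. Not given in the sources used here are the tissues in which that promoter is active, the number of transgenic lines, the kinship of the mice and the time of day at which the muscle was taken. The comparison asks how clock transcripts in Ogg1Tg muscle differ from those in Control muscle.

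The clock of mammalian cells is a loop of transcription and translation. ARNTL (also called BMAL1) pairs with CLOCK or NPAS2, binds E-box sequences and switches on the Per, Cry, Nr1d1 and Dbp genes, and the PER and CRY proteins then return to repress that pair. NR1D1 represses Arntl and Npas2 through ROR elements, so in mouse muscle transcripts of Arntl and Npas2 peak at the opposite phase to those of Nr1d1, Dbp and Per, while Clock oscillates little.

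The E-box CACGTG, the D-box core TTATGTAA bound by DBP and its relatives, and the ROR element core TAGGTCA were searched on both strands of RefSeq promoter windows of 300 bases (250 before the start to 50 after it, build GRCm38.p6). A total of 13 windows matched 9 of the 10 genes, all but Per2. Of all 32851 windows in the table, 7.15% held the E-box, 0.938% the D-box core and 2.61% the ROR element core. Among the 13 windows of the clock genes, 2 held the E-box, 1 the D-box core and 1 the ROR element core. The stretches with these matches are printed because they show the 3 elements through which the genes below are known to regulate one another. Capitals mark the match, positions count the start base as 0, and each stretch holds matches to 1 of the 3 motifs, so none overlap. CACGTG reads the same on both strands. Ciart, a target of the loop that is described with the other loop genes, is added because its window held 3 E-boxes.
Arntl, ROR element core at 30, chr7:113207530-113207559, plus strand: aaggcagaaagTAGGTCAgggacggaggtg
Per1, E-box at -166 from the upstream of its 2 RefSeq starts, chr11:69098739-69098838, plus strand: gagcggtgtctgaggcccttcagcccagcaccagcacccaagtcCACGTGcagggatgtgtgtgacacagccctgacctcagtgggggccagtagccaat
Cry1, E-box at -60, chr10:85185065-85185164, minus strand: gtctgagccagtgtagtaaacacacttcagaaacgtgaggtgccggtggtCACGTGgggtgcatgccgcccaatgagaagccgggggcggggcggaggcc
Per3, D-box cores at -205 and -158, chr4:151044786-151044885, minus strand: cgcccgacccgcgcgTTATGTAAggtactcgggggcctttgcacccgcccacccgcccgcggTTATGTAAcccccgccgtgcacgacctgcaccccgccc
Ciart, E-boxes at -116, -58 and -44, chr3:95882259-95882358, minus strand: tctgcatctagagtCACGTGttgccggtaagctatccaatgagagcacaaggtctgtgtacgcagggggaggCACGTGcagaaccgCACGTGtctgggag
A match describes the letters of the window and was not tested for binding in this muscle.

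Libraries held 45189860 to 56126407 reads in named genes, and every clock gene had at least 146 reads in each library. Mouse Ogg1 measured 154 to 225 in Control and 176 to 201 in Ogg1Tg muscle, and the human transgene was not measured. All libraries had high muscle fibre markers (Ckm, Acta1, Tnnt3, Myh4, Myh2, Pvalb and Mb), whose summed level was 5571482 to 7424597 in Control, 5077687 and 6829870 in Ogg1Tg replicates 1 and 2, and 3531986 in Ogg1Tg replicate 3. Myh4 made up most of each sum. Mb was lower in every Ogg1Tg mouse (23409, 14900 and 6392) than in any Control mouse (26217 to 42743), and the other markers overlapped. Ogg1Tg replicate 3 stood apart: its rank correlation with the other 5 was 0.946 to 0.953, against 0.975 to 0.983 among them. Its lymphocyte markers, of which 7 of the 8 listed were found by symbol in the files, summed to 7303, against 27.7 to 58.7 in Control and 91.1 and 71.4 in the other Ogg1Tg libraries, and its 6 adipocyte markers to 8044, against 1363 to 1951 in the other 5. Its 5 macrophage markers summed to 3330, against 1069 to 2129, and its 4 neutrophil markers to 28.2 with 2 of them at 0. Markers of endothelium, fibroblast, Schwann and erythroid cells summed in it to 12911, 36293, 1863 and 450, against ranges over the other 5 of 12196 to 16669, 28114 to 40487, 2851 to 4420 and 490 to 674. None of the muscle, lymphocyte, adipocyte or macrophage markers passed the test. Results for clock genes are therefore given with and without Ogg1Tg replicate 3, and the part of its other cell types in them was not tested.

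None of the 10 clock genes passed limma's test of Ogg1Tg against Control, at an adjusted p under 0.05 over all 23312 genes, of which 127 passed (0.545%). At an unadjusted p under 0.05 there were 4, Arntl, Clock, Npas2 and Per2, against 11.0% of all genes tested. Of the 12873 genes with a mean of at least 100, as the 10 clock genes had, 1943 were under it. edgeR and DESeq2, run on reads recovered from the deposited values, also passed 0 of the 10, with 2 and 3 at an unadjusted p under 0.05. Under limma's alternatives that number ran from 0, without Control replicate 1 or Control replicate 2, to 4. It was 1, Npas2, with no variance trend. The activators Arntl, Clock and Npas2 had lower group means in Ogg1Tg muscle, and so had Nr1d1, Cry1, Cry2 and Dbp. Per2 had a higher group mean there, and Per1 and Per3 had near-equal means. Each value is a read count divided by its library's own factor, given as mean ± SD over the 3 mice of a group, and fold changes are differences of log2(value + 1), Ogg1Tg minus Control, with limma's SE and 95% interval. In whole muscle, fewer cells of a type and less RNA per cell cannot be told apart.

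**Figure D1:**
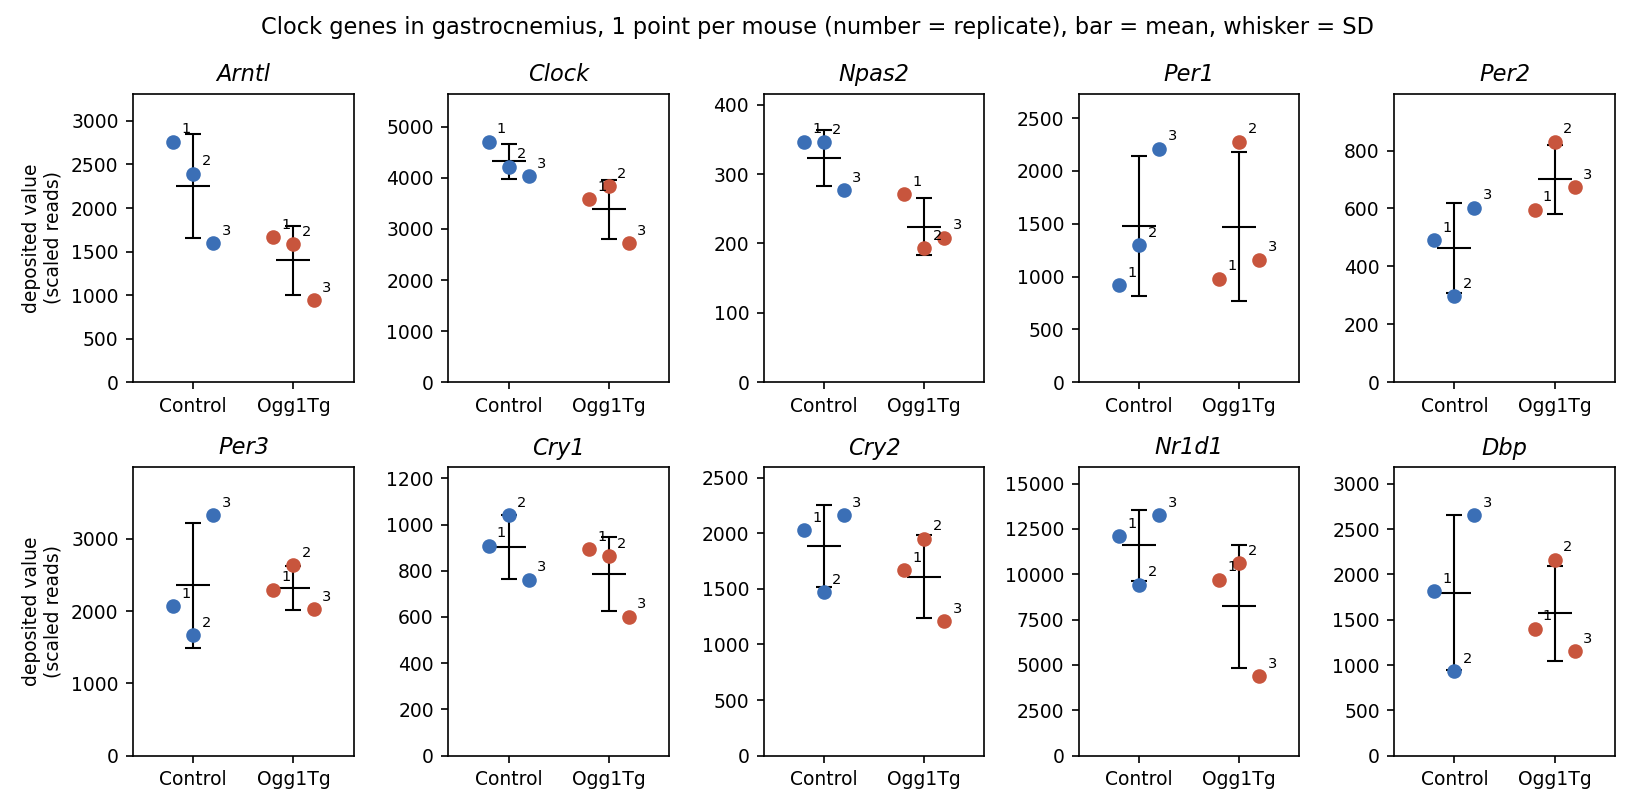
Scaled reads (y axis, from 0) of the 10 clock genes in each mouse of the Control and Ogg1Tg groups; points are mice with their replicate numbers, bars are group means and whiskers are SD (n = 3). Clock and Npas2 are the genes whose groups do not touch, and Control replicate 3 has the highest Control value of Per1, Per2, Per3, Cry2, Nr1d1 and Dbp but the lowest of Arntl, Clock, Npas2 and Cry1.

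Arntl, the partner that the loop cannot do without, measured 2762, 2396 and 1599 in the Control mice (here and below in the order of their replicate numbers, 1 to 3) and 1665, 1586 and 942 in the Ogg1Tg mice. Control replicates 1 and 2 were the highest of the 6 and Ogg1Tg replicate 3 the lowest, but Control replicate 3 lay among the Ogg1Tg mice, so the groups overlapped. The means were 2252 ± 595 and 1398 ± 397, a log2 fold change of -0.70 ± 0.26 (SE) with an interval from -1.29 to -0.11 (limma adjusted p = 0.367), and without Ogg1Tg replicate 3 it was -0.43. The gene lies on chr7:113207465-113314126 of GRCm38, plus strand, and the ROR element core printed above is 30 bases past the second of its 2 RefSeq starts.

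Clock, the usual partner of ARNTL, measured 4709, 4217 and 4038 in the Control mice and 3578, 3838 and 2727 in the Ogg1Tg mice. Every Ogg1Tg value lay below every Control value, by a narrow margin between Control replicate 3 and Ogg1Tg replicate 2. The log2 fold change was -0.37 ± 0.15 (SE), with an interval from -0.71 to -0.02 (limma adjusted p = 0.425), and -0.22 without Ogg1Tg replicate 3. Clock lies on chr5:76209868-76304792, minus strand.

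Npas2, which can take the place of CLOCK, measured 347, 345 and 277 in Control and 271, 193 and 208 in Ogg1Tg muscle. Its groups also did not overlap, though Control replicate 3 and Ogg1Tg replicate 1 were near each other. The log2 fold change was -0.53 ± 0.20 (SE), with an interval from -0.98 to -0.09 (limma adjusted p = 0.361), and it was -0.49 without Ogg1Tg replicate 3. Npas2 lies on chr1:39193731-39363236, plus strand.

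Thus 2 of the 10 clock genes had groups that did not overlap with Ogg1Tg lower, against 11.3% of all genes tested, and 0 of 10 with Ogg1Tg higher, against 7.03%. All 10 clock genes had a mean of at least 100. Of the 12873 genes with such a mean, 2063 did not overlap with Ogg1Tg lower and 994 with Ogg1Tg higher. Which clock genes did not overlap depends on the scaling. After median-of-ratios rescaling Npas2 overlapped, with Control replicate 3 at 215 and Ogg1Tg replicate 1 at 219, and after quantile normalization at 276 and 278. Clock kept its separation under both, with Control replicate 3 at 3143 and Ogg1Tg replicate 2 at 3059 after the first.

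The Per genes encode the period proteins, which carry the CRY proteins into the repressing complex. Per2 measured 490, 297 and 603 in Control and 595, 831 and 674 in Ogg1Tg muscle. Ogg1Tg replicates 2 and 3 lay above all Control mice, while Ogg1Tg replicate 1 fell just under Control replicate 3. The means were 463 ± 155 and 700 ± 120, giving a log2 fold change of 0.64 ± 0.26 (SE) and an interval from 0.06 to 1.22 (limma adjusted p = 0.400). Leaving out Ogg1Tg replicate 3 gave 0.66. That narrow overlap also turned on the scaling: Ogg1Tg replicate 1 was at 481 and Control replicate 3 at 469 after median-of-ratios rescaling, and at 598 and 593 after quantile normalization. Per2 lies on chr1:91415982-91459324, minus strand.

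Per1, the period gene that also responds fast to outside signals, measured 921, 1299 and 2208 in Control and 980, 2277 and 1159 in Ogg1Tg muscle. One mouse of each group, Control replicate 3 and Ogg1Tg replicate 2, stood well above the other 4. The log2 fold change of Per1 was -0.01 ± 0.37 (SE), with an interval from -0.84 to 0.82 (limma adjusted p = 0.995), and its sign turned under both rescalings. Per3 measured 2072, 1666 and 3327 in Control and 2297, 2631 and 2022 in Ogg1Tg muscle. Control replicate 3 and Ogg1Tg replicate 2 were again the highest, here in the reverse order. Its log2 fold change was 0.03 ± 0.24 (SE), with an interval from -0.50 to 0.56 (limma adjusted p = 0.974). These intervals leave room for changes of either sign, so the data do not show that Per1 and Per3 were equal in the groups. Without Ogg1Tg replicate 3 the log2 fold changes were 0.11 for Per1 and 0.12 for Per3. Per1 lies on chr11:69095217-69109960, plus strand, with the E-box shown above before the upstream of its 2 RefSeq starts, and Per3 on chr4:151003652-151044665, minus strand, with both D-box cores upstream of its start.

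The cryptochromes Cry1 and Cry2 are the main repressors of the ARNTL pair, and Cry1 peaks late because it answers to ROR elements as well as E-boxes. Cry1 measured 908, 1041 and 761 in Control and 894, 863 and 602 in Ogg1Tg muscle, with a log2 fold change of -0.21 ± 0.19 (SE; limma adjusted p = 0.717). Cry2 measured 2026, 1470 and 2163 in Control and 1667, 1950 and 1209 in Ogg1Tg muscle, with a log2 fold change of -0.24 ± 0.21 (SE; limma adjusted p = 0.710). The groups overlapped for both genes, and Ogg1Tg replicate 3 was the lowest library for both. Without it the log2 fold changes were -0.03 and -0.05. The 2 genes ordered the Control mice differently: replicate 3 was the lowest Control for Cry1 and the highest for Cry2. Cry1 lies on chr10:85131700-85185064 and Cry2 on chr2:92403646-92434043, both on the minus strand.

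Nr1d1, which encodes the repressor REV-ERBα, measured 12113, 9438 and 13265 in Control and 9706, 10620 and 4374 in Ogg1Tg muscle. Ogg1Tg replicate 3 was far below the other 5 libraries, and Ogg1Tg replicates 1 and 2 lay between Control replicates 2 and 1. The means were 11605 ± 1964 and 8233 ± 3374, giving a log2 fold change of -0.58 ± 0.31 (SE; limma adjusted p = 0.536). Without Ogg1Tg replicate 3 it was -0.18, with an interval from -0.48 to 0.13. Dbp, the output factor that binds D-boxes, measured 1812, 934 and 2655 in Control and 1402, 2163 and 1155 in Ogg1Tg muscle. The Control mice alone spanned the whole range of Ogg1Tg values. The log2 fold change of Dbp was -0.12 ± 0.36 (SE), with an interval from -0.94 to 0.70 (limma adjusted p = 0.923), and it turned positive without Ogg1Tg replicate 3 (0.08) or without Control replicate 3 (0.22).

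Nr1d1 lies on chr11:98767932-98775333, minus strand, and 263 of its 3077 exon bases are shared with Thra, a thyroid hormone receptor gene on the other strand. Dbp lies on chr7:45705088-45710203, plus strand, and 539 of its 2993 exon bases are shared with Sphk2, a sphingosine kinase gene on the other strand. How reads in those bases were counted is not known, because whether the counting used strand is not stated. Thra measured 3441, 3510 and 3736 in Control and 3577, 3563 and 2569 in Ogg1Tg muscle, and was lowest in the same library as Nr1d1. Sphk2 measured 922 to 1191 over the 6 libraries, a narrower span than that of Dbp. Cry2 shares 295 exon bases with the noncoding gene D930015M05Rik, which measured at most 69.3, and Arntl shares 33 with Gm45355.

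Over the 10 genes the median log2 fold change was -0.22, against -0.02 over all genes tested and -0.06 over the 12873 genes with a mean of at least 100. In 8 of the 10 the value was below 0, against 52.8% of all genes tested and 59.5% of those with a mean of at least 100, and in 7 after median-of-ratios rescaling, after quantile normalization, with edgeR and with DESeq2, where Per1 crossed 0. Without single libraries the number below 0 ran from 6, without Control replicate 3 or Ogg1Tg replicate 3, to 9. The median of the 10 genes' log2 distances from the Control mean was 0.12, -0.19 and 0.21 in the Control mice and -0.24, 0.01 and -0.60 in the Ogg1Tg mice. Ogg1Tg replicate 3 was the lowest and Ogg1Tg replicate 2 lay within the Control values. Without Ogg1Tg replicate 3 the median log2 fold change was -0.04, the same to 2 decimals as over all genes tested without that library.

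**Figure D2:**
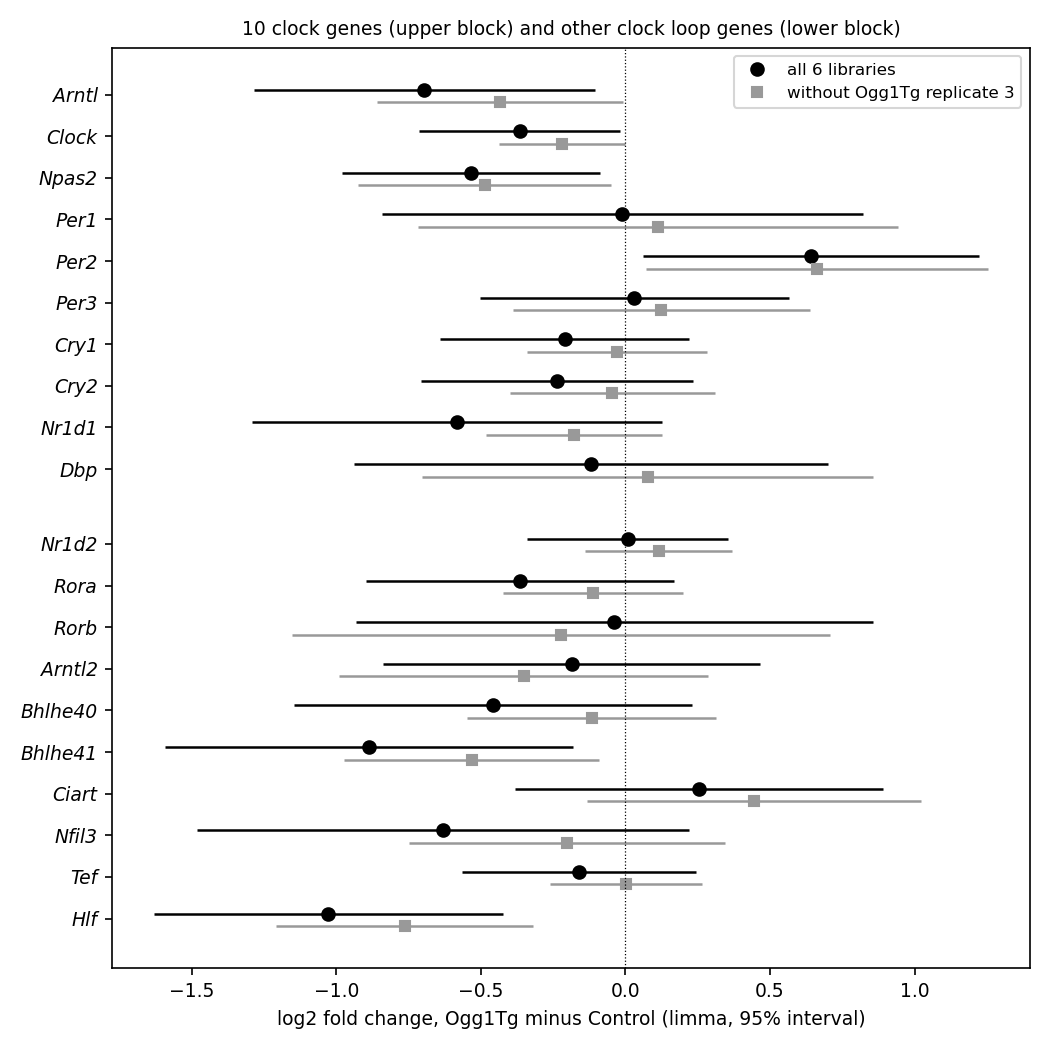
Log2 fold changes, Ogg1Tg minus Control (x axis, limma, 95% intervals), of the 10 clock genes (upper block) and 10 other genes of the clock loop (lower block), from all 6 libraries (black) and without Ogg1Tg replicate 3 (grey). Intervals of Arntl, Clock, Npas2, Per2, Bhlhe41 and Hlf exclude 0 in black, none of the genes shown passed after adjustment, Nr1d1 moves from -0.58 to -0.18, and Per1, Dbp and Tef change sign.

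The phase opposites were read in each mouse. The mean log2 distance of Arntl, Clock and Npas2 from their Control means was 0.19, 0.07 and -0.26 in the Control mice and -0.30, -0.46 and -0.83 in the Ogg1Tg mice. All Ogg1Tg mice lay below all Control mice, but Control replicate 3 and Ogg1Tg replicate 1 were close. The 2 crossed after median-of-ratios rescaling, at -0.27 and -0.26, and did not after quantile normalization, at -0.25 and -0.27. The mean distance of Dbp, Nr1d1, Per1, Per2 and Per3 was -0.07, -0.44 and 0.51 in Control and -0.11, 0.42 and -0.34 in Ogg1Tg muscle. These overlapped fully, with Control replicate 3 and Ogg1Tg replicate 2 high.

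The difference of the 2 means, opposite-phase genes minus activators, was -0.26, -0.51 and 0.77 in Control and 0.20, 0.88 and 0.49 in Ogg1Tg muscle. All 3 Ogg1Tg mice and Control replicate 3 were above 0, and Control replicates 1 and 2 were below it. The Control mean is set partly by Control replicate 3: measured from Control replicates 1 and 2 alone, the Ogg1Tg values were 0.58, 1.26 and 0.88. Measured without Control replicate 2 they were -0.0555, 0.63 and 0.24, with Ogg1Tg replicate 1 below 0. In Control replicate 3 and Ogg1Tg replicate 2 the mean of the opposite-phase genes was above the Control mean and that of the activators below it, while in Ogg1Tg replicates 1 and 3 both means were below it. Single genes departed from their set: Nr1d1 was at -0.11 in Ogg1Tg replicate 2, and Per2 at 0.42 and 0.60 in Ogg1Tg replicates 1 and 3. No test was made, since the 2 sets were chosen for known roles and phases. Clock, which oscillates little, also enters the activator mean and the difference, so these do not measure phase opposites alone.

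**Figure D3:**
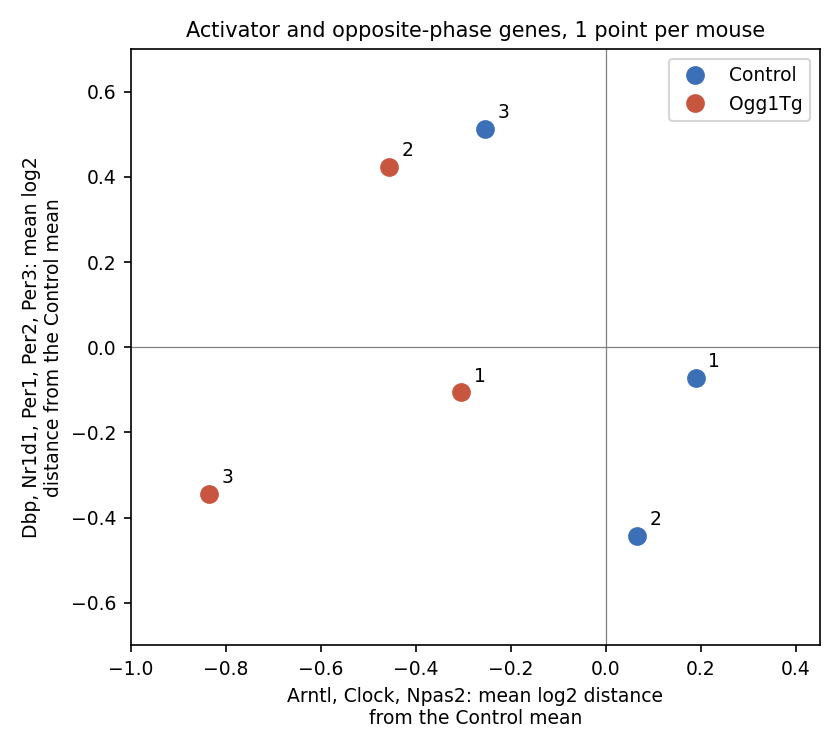
Mean log2 distance from the Control mean of Arntl, Clock and Npas2 (x axis) and of Dbp, Nr1d1, Per1, Per2 and Per3 (y axis), 1 point per mouse with its replicate number. Control replicate 3 and Ogg1Tg replicate 2 are at the upper left (-0.26 and 0.51, -0.46 and 0.42), Ogg1Tg replicate 3 is at the lower left (-0.83 and -0.34), and Control replicates 1 and 2 are at the right.

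Ratios of 2 genes within a library do not depend on the scaling factor of that library. Dbp over Arntl was 0.656, 0.390 and 1.66 in Control and 0.842, 1.36 and 1.23 in Ogg1Tg muscle. Control replicate 3 had the highest ratio of all 6 mice and Control replicates 1 and 2 the lowest. Per2 over Arntl was 0.177, 0.124 and 0.377 in Control and 0.358, 0.524 and 0.716 in Ogg1Tg muscle, where Control replicate 3 was just above the lowest Ogg1Tg mouse. Per3 over Arntl was 0.750, 0.695 and 2.08 in Control and 1.38, 1.66 and 2.15 in Ogg1Tg muscle. Control replicate 3 again lay inside the Ogg1Tg range. Per1 over Arntl was 0.333 to 1.38 in Control and 0.588 to 1.44 in Ogg1Tg muscle. Nr1d1 over Arntl was 3.94 to 8.30 in Control and 4.65 to 6.70 in Ogg1Tg muscle. For all 5 ratios the groups overlapped through Control replicate 3, and the other 2 Control mice were below every Ogg1Tg mouse. The 5 ratios share Arntl as their denominator. Clock over Arntl, a ratio of 2 activators, was 1.70, 1.76 and 2.53 in Control and 2.15, 2.42 and 2.90 in Ogg1Tg muscle. Here too Control replicates 1 and 2 were below every Ogg1Tg mouse and Control replicate 3 was not. Dbp over Npas2 was 5.23, 2.70 and 9.59 in Control and 5.17, 11.2 and 5.55 in Ogg1Tg muscle, where Control replicate 1 lay above Ogg1Tg replicate 1.

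**Figure D4:**
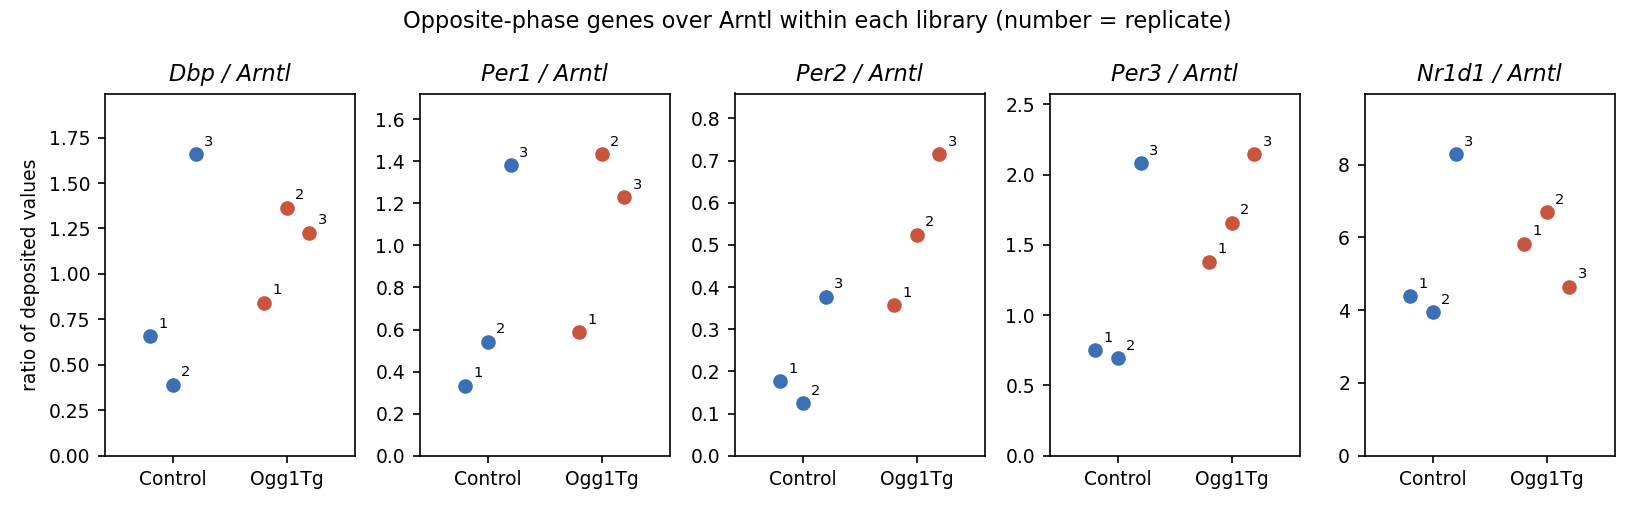
Ratio of scaled reads within a library (y axis, from 0) of Dbp, Per1, Per2, Per3 and Nr1d1 to Arntl, 1 point per mouse with its replicate number. Control replicates 1 and 2 are lowest in each panel, and Control replicate 3 lies inside or above the Ogg1Tg range, from 0.377 for Per2 to 8.30 for Nr1d1.

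Apart from Clock, the clock genes varied more between mice of 1 genotype than most genes did. Among the 3 Control mice the highest value was 2.84 times the lowest for Dbp, 2.40 times for Per1, 2.03 times for Per2, 2.00 times for Per3 and 1.73 times for Arntl, but 1.17 times for Clock. The Control SD on the log2 scale was 0.76 for Dbp, 0.64 for Per1, 0.53 for Per2, 0.51 for Per3 and 0.41 for Arntl, against a median of 0.13 over 12873 genes with a mean of at least 100. Of those genes, 99.1% had a smaller Control SD than Dbp, 98.5% than Per1, 97.2% than Per2, 97.0% than Per3 and 94.4% than Arntl. Cry2, Nr1d1, Cry1 and Npas2 followed at 0.30, 0.25, 0.23 and 0.19, and Clock was the steadiest at 0.11, with 42.9% of genes below it. This order, with Dbp and the Per genes at the top and Clock at the bottom, is that of the Control mice. With the SD pooled over both groups Nr1d1 (0.53) and Arntl (0.43) came above Per2 (0.41) and Per3 (0.38). The pooled median over the 12873 genes was 0.215, with Npas2 just above it at 0.223 and Clock below it at 0.20. Still, the limma intervals of Dbp and Per1 were the widest of the 10.

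**Figure D5:**
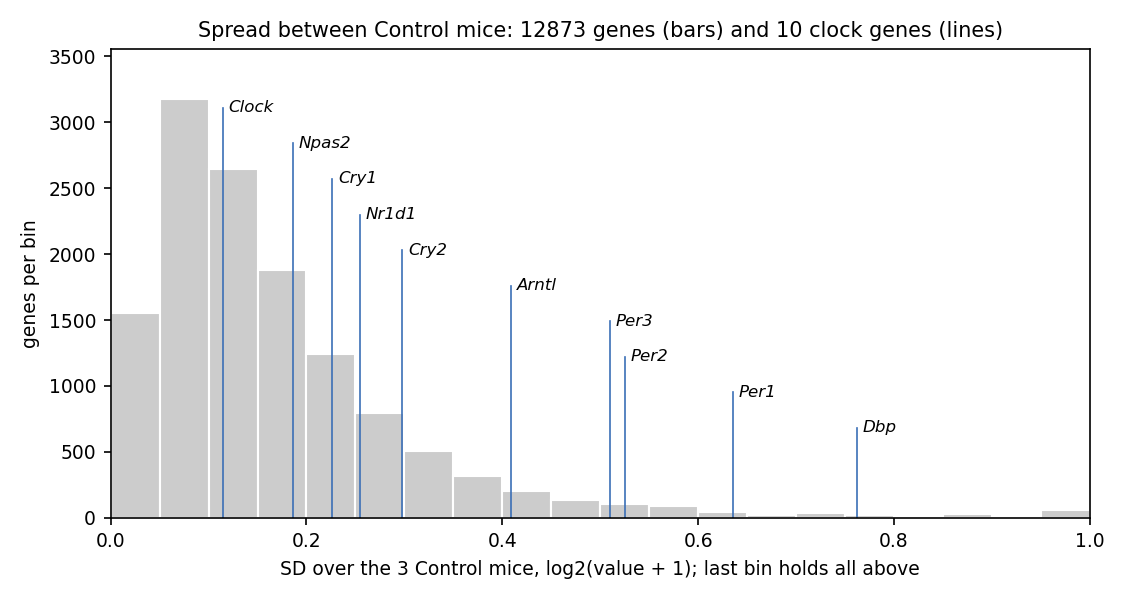
Number of genes (y axis) by SD of log2(value + 1) over the 3 Control mice (x axis) for 12873 genes with a mean of at least 100 (bars; the last bar holds all larger values), with the 10 clock genes as lines. Clock (0.11) lies by the median of 0.13, and Arntl, the Per genes and Dbp lie in the right tail, from 0.41 to 0.76.

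Levels of different genes were compared per kilobase of exon. Nr1d1 had the highest level, 3772 ± 638 scaled reads per kilobase in Control and 2676 ± 1096 in Ogg1Tg muscle. Dbp came next at 602 ± 287 and 526 ± 176. In Control muscle Clock (315 ± 25.3), Arntl (299 ± 79.1), Cry2 (298.5 ± 58.1), Cry1 (270.5 ± 41.9), Per1 (262 ± 118) and Per3 (245 ± 90.1) followed, and neighbours in this order did not differ beyond their spread, Dbp and Clock included. Per2 (79.1 ± 26.5) and Npas2 (67.4 ± 8.36) lay below all of these in every Control mouse and overlapped each other. In Ogg1Tg muscle Per2 was at 119.5 ± 20.5 and Npas2 at 46.8 ± 8.62 per kilobase, still the last of the order but without overlap, while Arntl, at 186 ± 52.8, was next above them.

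Of 11 other genes of the loop, 0 passed limma's test, 2 had an unadjusted p under 0.05 (11.0% of all genes) and 9 had a log2 fold change below 0 (52.8% of all genes). Their median was -0.20, and -0.12 without Ogg1Tg replicate 3. Hlf, a D-box factor of the same family as Dbp, measured 1252, 1175 and 1463 in Control and 581, 995 and 439 in Ogg1Tg muscle. It was the 1 loop gene of the 11 whose groups did not overlap, with Ogg1Tg lower (11.3% of all genes). Its log2 fold change was -1.03 ± 0.27 (SE; limma adjusted p = 0.193), and it was -0.76 without Ogg1Tg replicate 3 (limma adjusted p = 0.103). DESeq2 passed it, as did limma without Ogg1Tg replicate 2, and limma's adjusted p under its other alternatives was 0.103 to 0.617. Tef, the other member of that family, had a log2 fold change of -0.16, and 0.00236 without Ogg1Tg replicate 3.

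Bhlhe41, an E-box repressor, measured 7310, 4413 and 5593 in Control and 3302, 4621 and 1865 in Ogg1Tg muscle. Ogg1Tg replicate 2 lay above Control replicate 2, and the log2 fold change was -0.89 (limma adjusted p = 0.340), or -0.53 without Ogg1Tg replicate 3. Its relative Bhlhe40 was at -0.46, and -0.12 without that library. Nfil3, the repressor that competes at D-boxes, was at -0.63 (limma adjusted p = 0.583), and -0.20 without it. Of the activating ROR receptors, which compete with NR1D1, Rora was at -0.37, and -0.11 without Ogg1Tg replicate 3, and Rorb at -0.04 and -0.22. Arntl2, the paralogue of Arntl, was at -0.19, and -0.35 without that library. Nr1d2, the paralogue of Nr1d1, measured 7408, 6560 and 8487 in Control and 7814, 8308 and 6455 in Ogg1Tg muscle. Its log2 fold change was 0.01 (limma adjusted p = 0.990), and Ogg1Tg replicate 3 was lowest here too, but by far less than for Nr1d1. Ciart, a repressor whose window held the 3 E-boxes printed above, was at 0.25 (limma adjusted p = 0.761), and 0.44 without Ogg1Tg replicate 3. It was highest in Ogg1Tg replicate 2 (314) and in Control replicate 3 (262), as Per1 and Per3 were.

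Of 12 kinases, ubiquitin ligases and partners that act on clock proteins, 0 passed and 11 were below 0. The median log2 fold change was -0.13, or -0.04 without Ogg1Tg replicate 3. Over all genes tested 0.545% passed and 52.8% were below 0, to be read beside the counts of this list and the next. Csnk1a1, a casein kinase, was at -0.13, and 0.01 without that library. Gsk3b, another kinase of PER and CRY proteins, was at -0.02, and 0.18 without it (limma adjusted p = 0.458). Of 12 known clock outputs in muscle 0 passed, 9 were below 0 and the median was -0.33, or -0.10 without Ogg1Tg replicate 3. Tcap, which encodes a protein of the sarcomere, measured 44548 ± 2917 and 27862 ± 10321, without overlap, with a log2 fold change of -0.76 (limma adjusted p = 0.379) and -0.40 without Ogg1Tg replicate 3. Pfkfb3, an enzyme that controls glycolysis, was at -0.45 (limma adjusted p = 0.695), and -0.12 without that library.

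Signals that can shift the clock of peripheral tissues were read from 3 lists, whose counts stand beside the same shares (0.545% passed and 52.8% below 0 over all genes tested). Of 10 glucocorticoid-induced genes, 1 passed, Cdkn1a, an inhibitor of the cell cycle with many other inducers. It rose from 612 ± 64.7 to 2125 ± 792, a log2 fold change of 1.73 ± 0.24 (SE; limma adjusted p = 0.0164), and was higher in 3 of 3 Ogg1Tg mice than in any Control mouse. The call was lost with no variance trend (limma adjusted p = 0.198) and without Control replicate 1, 2 or 3 (limma adjusted p = 0.119, 0.135 and 0.131), where the log2 fold change was 1.64 to 1.78. Over all alternatives its adjusted p ran from 6.9e-10, with DESeq2, to 0.198. The other 9 did not pass, 8 of the 10 were below 0 and the median was -0.24, or -0.14 without Ogg1Tg replicate 3. In 3 of the 10 the groups did not overlap with Ogg1Tg lower (11.3% of all genes), and in 1, Cdkn1a, with Ogg1Tg higher (7.03%). An unadjusted p under 0.05 was reached by 4, Cdkn1a included (11.0% of all genes). Of 8 immediate early genes 0 passed and 4 were below 0, with a median of 0.15, or 0.0046 without Ogg1Tg replicate 3. Nr4a1, a nuclear receptor induced by activity, was at -0.46 (limma adjusted p = 0.602), and -0.14 without that library. Dusp1, a phosphatase, measured 4075 ± 346 and 1777 ± 650, without overlap, with a log2 fold change of -1.27 (limma adjusted p = 0.0937). It passed without Ogg1Tg replicate 3 (limma adjusted p = 0.00314), without Ogg1Tg replicate 2 and with DESeq2, and not under the other alternatives, where its adjusted p was 0.0748 to 0.444. Of 7 temperature-responsive genes 0 passed and 5 were below 0, with a median of -0.09. Rbm3, an RNA-binding protein induced by cold, was at 0.18 (limma adjusted p = 0.719) and Hsph1, a heat shock protein, at -0.20 (limma adjusted p = 0.692).

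The likeness of genes to Arntl was taken as Pearson's r over the 6 libraries on the log2(value + 1) scale, among 14383 genes with a mean of at least 50. The 6 libraries share the 2 groups and the distinct Ogg1Tg replicate 3, and 613 genes had r above 0.9 and 210 below -0.9, so the values are a description. Among the genes with the highest r outside the lists were Trp53rka (0.993), Ppp1r16a (0.993), Sec61g (0.991), Hexim1 (0.988) and Agt (0.988). Among those with the lowest were Cxcr2 (-0.995), Zfp457 (-0.986), Rps28 (-0.985), Twf1 (-0.983) and Stx1a (-0.982). Among the clock genes Clock had the highest r with Arntl, 0.946, followed by Cry1 at 0.880, Npas2 at 0.824, Nr1d1 at 0.732 and Cry2 at 0.509. Dbp was at 0.03, Per1 at -0.23, Per3 at -0.26 and Per2 at -0.64. Of the other loop genes Nfil3 was the closest, at 0.939. Arntl and Nr1d1 were both lowest in Ogg1Tg replicate 3. Over the other 5 libraries, a reading added after the values were seen, r with Arntl was -0.05 for Nr1d1, -0.25 for Cry2, -0.50 for Dbp, -0.66 for Per1, -0.76 for Per3 and -0.72 for Per2, and 0.858 for Clock, 0.811 for Npas2 and 0.652 for Cry1.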

How the data were processed

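Libraries from total RNA of 6 gastrocnemius muscles were prepared with a NuGen Ovation kit, per the labels' protocols. Trimmomatic, SAMtools, HTSeq and mm10 are named in the submitters' processing notes. Aligner, annotation and use of strand are not stated there or in the labels. The deposited values are a signal: gene counts divided by 1 factor per library by the authors, although named FPKM (multiples of 1 step within 0.01 for 100% of values). In Ogg1Tg replicate 3 that step is 1.006, so its recovery is less distinctive. Unnamed entries (1824 of 37315, 2.38% to 3.54% of reads) were left out, and 13 repeated symbols were kept.

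Genes with a mean of at least 1 were tested with limma 3.58.1 (R 4.3.3) on log2(value + 1), a scale that shrinks folds of low genes, with a variance trend, two-sided tests and Benjamini-Hochberg adjustment over all genes. The procedures were tested on simulated data, with pass criteria eased after the first runs and a larger share of false calls allowed for DESeq2 than for limma and edgeR. Alternatives were each library left out, a replicate block, quantile normalization, median-of-ratios rescaling, no filter or a minimum mean of 10, a pseudocount of 0.1, no variance trend, and edgeR 4.0.16 and DESeq2 1.42.0 on recovered reads. Coordinates and exon lengths come from GENCODE on GRCm38 (mm10). The mice are separate animals per the labels, which name no shared litter or day. limma's p-values rest on the spread between them, drawn toward that of genes at similar levels. Every pair of libraries differed by more than sampling noise (smallest chi-square per gene 13.9).

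The clock genes, lists and tests were chosen with earlier results of these data known. Named are all 10 clock genes and 11 other loop genes, of each other list the called genes or else the 2 with the highest mean, genes that share exon bases on the other strand, Ogg1, and the 6 genes at each end of likeness to Arntl. Some genes that this rule selects are not reported here.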

Additional observations from a re-analysis of the deposited data

How the results depend on the processing

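The count of clock genes called was 0 under every alternative run. The lowest limma adjusted p of a clock gene was 0.116, for Arntl with a replicate block. Signs of Arntl, Clock, Npas2, Per2, Cry1, Cry2 and Nr1d1 were the same under every alternative. Per1 turned positive with median-of-ratios rescaling (0.0444), quantile normalization (0.0438), edgeR (0.0654) and DESeq2 (0.0457), and without single libraries it ran from -0.38 to 0.33 (0.33 without Control replicate 3, 0.23 without Ogg1Tg replicate 1, 0.11 without Ogg1Tg replicate 3). Per3 ran from -0.19 to 0.31 (-0.03 without Control replicate 1, -0.19 without Control replicate 2, -0.07 without Ogg1Tg replicate 2), and Dbp from -0.53 to 0.22 (0.22 without Control replicate 3, 0.08 without Ogg1Tg replicate 3). Over all genes the count called was 127, 46 with no variance trend, 619 with DESeq2 (58.6% higher, against 72.4%) and 35 to 425 without single libraries: leaving out a Control mouse gave 43, 42 and 35, in the order of the replicate numbers, and leaving out an Ogg1Tg mouse 62, 194 and 425, the last with 52.9% higher. Of the other listed genes 1 was called (Cdkn1a), 0 with no variance trend, 3 with DESeq2 (Hlf and Dusp1 added) and 0 to 3 without single libraries (0 without any of the Control mice, 3 without Ogg1Tg replicate 2). Median-of-ratios rescaling moved the median of all genes from -0.02 to 0.03. The opposite-phase minus activator difference measured without Control replicate 3 was 0.58, 1.26 and 0.88 in Ogg1Tg replicates 1, 2 and 3. Without single libraries it ran from -0.0555 to 0.58, 0.63 to 1.26 and 0.24 to 0.88 in those mice, and from -0.51 to 0.12, -0.64 to -0.12 and 0.51 to 0.77 in Control replicates 1, 2 and 3. Beyond smaller groups, the cause was not tested. Whether replicate numbers pair the mice is not known. The correlation of deviations was -0.01, -0.07 and 0.17 for same-numbered mice. The replicate 3 mice correlated best with each other, but not every mouse did so with its own number. The highest correlation of all, 0.29, was that of Control replicate 1 with Ogg1Tg replicate 2. With 3 mice a group these values cannot exclude a shared litter or day. With a replicate block 102 genes and 0 clock genes were called, and limma's unadjusted p of Arntl was 0.00089, against 0.026 without it. Every clock gene had at least 146 reads in each library. The intervals hold counting noise and the spread between 3 mice a group, drawn by limma toward that of genes at similar levels. For genes that vary more than most, such as Per1 and Dbp, they are narrower than the spread of those genes alone would give.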
